A study of Mus musculus with 42 samples.

Results

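The genes described here encode the subunits, activators and assembly factors of the proteasome, the protease complex that degrades ubiquitin-tagged proteins. They were all genes of the stage table whose symbol begins with Psma, Psmb, Psmc, Psmd, Psme, Psmf or Psmg followed by a digit, 50 of 24083 genes. Of these, 49 are autosomal, and Psmd10 is on the X chromosome. The symbol rule also takes in Psmc3ip, a meiotic recombination factor that is not a proteasome subunit, and Psme2b, which was listed at 0 throughout.

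Expression was measured by Smart-seq2, a full-length polyA RNA-seq protocol for small samples, in 42 mouse samples, and was deposited as FPKM (read fragments scaled to transcript length and library size), separately for each parental allele. The stage table held wild type female embryos of C57BL/6N mothers and PWK/PhJ fathers. Its groups were 8-cell embryos (3 samples), morulae (3), E3.5 trophectoderm (3) and inner cell mass (2), tissues of E6.5 embryos, namely visceral endoderm (3), extraembryonic ectoderm (2) and epiblast (1), and yolk sac of E9.5 (1). A morula table of the same cross held wild type control male morulae (4), wild type control female morulae (3) and female morulae with the genotype Xp XRRa KO, a knockout of XRRa on the paternal X (4). Another table, of X-linked genes alone, held extraembryonic ectoderm of 13 E7.5 female EedmNull embryos, from Eedfl/fl;Gdf9-Cre mothers and wild type PWK/PhJ fathers. Gdf9-Cre acts in the growing oocyte, so these embryos lack maternal Eed, a subunit of the Polycomb complex PRC2, and inherit an intact Eed allele from the father. In the stage and morula tables the authors had merged the samples of a group into a single column for each allele, which leaves no spread between samples, and no group difference there was tested. A fixed rule of size stood in for a test: at least 2-fold on FPKM plus 1, for genes with a table mean of at least 5 FPKM and above 0 in both columns. All fathers were PWK/PhJ, so a paternal effect and a strain effect cannot be told apart, and the EedmNull table had no control embryos.

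The proteasome consists of a barrel, the 20S core, capped by the 19S regulatory particle. In the core, outer rings of alpha subunits (Psma genes) gate the entrance and inner rings of beta subunits (Psmb genes) hold the proteolytic sites, of which Psmb5, Psmb6 and Psmb7 encode the catalytic ones. The base of the regulatory particle unfolds substrates with a ring of ATPases (Psmc genes), and its lid (most Psmd genes) removes ubiquitin. Immune cells and cells exposed to interferon replace the catalytic subunits with Psmb8, Psmb9 and Psmb10, which form the immunoproteasome. Other caps, encoded by Psme genes, open the core without ubiquitin. In the embryo, proteasomes clear maternal proteins after fertilization.

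Subunits of a complex are needed in fixed proportion, and their genes share regulators: the factor encoded by Nfe2l1 raises many subunit genes through antioxidant response elements when proteasome activity falls. The sequences below show, for 6 genes to which the results return, the 120 bases that precede the annotated start (RefSeq, GRCm38.p6, 5′ to 3′ on the gene's strand). Psmb5 and Psmb6 are catalytic subunits, Psmd1 and Psmd2 were low in 8-cell embryos, Psmb9 is the inducible subunit with the highest level, and Psmd10 is the X-linked member. Capitals mark the response element core TGACNNNGC or, in Psmb9 and Psmd10, a CCAAT box (ATTGG when read on the opposite strand).
Psmb5 (chr14:54617996-54618115, minus strand): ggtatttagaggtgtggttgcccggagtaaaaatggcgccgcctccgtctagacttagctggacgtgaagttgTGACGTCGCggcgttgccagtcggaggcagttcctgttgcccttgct
Psmb6 (chr11:70525237-70525356, plus strand): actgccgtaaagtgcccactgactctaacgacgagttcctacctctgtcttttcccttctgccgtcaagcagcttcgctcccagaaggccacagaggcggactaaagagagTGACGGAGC
Psmd1 (chr1:86064499-86064618, plus strand): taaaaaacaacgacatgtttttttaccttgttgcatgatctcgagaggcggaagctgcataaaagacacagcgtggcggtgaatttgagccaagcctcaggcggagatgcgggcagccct
Psmd2 (chr16:20651532-20651651, plus strand): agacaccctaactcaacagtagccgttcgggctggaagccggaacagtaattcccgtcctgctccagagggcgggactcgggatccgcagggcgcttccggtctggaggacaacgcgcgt
Psmb9 (chr17:34187331-34187450, minus strand): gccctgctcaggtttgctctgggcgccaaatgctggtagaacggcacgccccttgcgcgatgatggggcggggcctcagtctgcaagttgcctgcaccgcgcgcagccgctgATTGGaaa
Psmd10 (chrX:140956712-140956831, minus strand): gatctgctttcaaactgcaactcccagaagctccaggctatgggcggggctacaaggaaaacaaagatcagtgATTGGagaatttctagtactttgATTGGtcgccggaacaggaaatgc
The TGACNNNGC core stood 47 bases before the start of Psmb5 and 9 bases before that of Psmb6, and was not in these stretches of Psmd1 or Psmd2. Psmd3, which was also low in 8-cell embryos, had no entry in the promoter table. A link between the core and these levels was not tested. Psmd10 had CCAAT boxes at 47 and 24 bases and Psmb9 at 8 bases before its start. Over 300-base windows on either strand, the response element core was in 6 of the 42 member genes with an entry in the promoter table (14.3%), Psmb5, Psmb6, Psmc6, Psmd9, Psmd12 and Psme4, against 12.4% of all 32851 promoters. CCAAT was in 15 members (35.7%) against 37.4% of all, and the interferon response element core (GAAA, any 2 bases, GAAA) in 5 members (11.9%), none of them an immunoproteasome gene, against 3.44% of all. These are matches of letters and not binding sites, and the windows of the members hold the response element core and CCAAT about as often as all promoters do. Members were counted by gene, with a match in any of their 45 promoters, and the background by promoter, so the shares differ in unit.

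Most constitutive subunits were among the measured genes. Of 14 core genes, 12 were above 0 in all 7 columns before the yolk sac, and of 17 regulatory particle genes 16 were, 9 of the base and 7 of the lid. The other members of this set were listed at 0 almost everywhere. Psma2 was at 0 in every column, Psmb2 was above 0 only in extraembryonic ectoderm, at 377.9 FPKM and all maternal, and Psmd13 only there, at 50.7 FPKM and all paternal. The activator Psme2 was also above 0 only in that column (44.3 FPKM, all maternal), while its partner Psme1 was at 0 in every column. A zero in these columns may only mean that no read could be given to an allele, and is not evidence of silence. The extraembryonic ectoderm column held 180 genes at 5 FPKM or more that were at 0 in the other 7 columns, and in 99 of these (55%) 1 allele alone was above 0, against 2.1% of all 6090 genes at that level in the column.

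The labels of the tissue columns were checked against marker genes. Nanog and Pou5f1 (pluripotent cells) were highest in inner cell mass, Krt8 and Gata3 in trophectoderm, Utf1 and Otx2 in epiblast, Elf5 and Bmp4 in extraembryonic ectoderm, and Apoa1, Ttr and Afp in visceral endoderm and yolk sac. The inner cell mass column had Krt8 at 519.7 FPKM, against 1502 in trophectoderm. There the extraembryonic ectoderm markers Elf5, Bmp4, Wnt7b and Hand1 summed to 55.2 FPKM, against 282.9 in extraembryonic ectoderm. The visceral endoderm column also had Fgf5, an epiblast gene, at 91.9 FPKM against 60.8 in the epiblast column. The extraembryonic ectoderm column had Utf1 at 275.6 FPKM and the visceral endoderm gene Apoa1 at 108.8. In yolk sac the primitive erythroid gene Hbb-bh1 was at 312.9 FPKM, while Hbb-y, Hba-x and Gata1, of the same list, were listed at 0. Of 5 leukocyte and macrophage markers, the defining gene Ptprc was at 0 in every column but yolk sac (0.40 FPKM) and control female morulae (0.06), and the list summed to between 0.729 and 15.6 FPKM over the columns of the stage table. Its most frequent member was Cd68, a lysosomal gene, at up to 4.83 FPKM there, and Lyz2 was at 12.4 FPKM in morulae. In the morula table Cd68 was at 10.7 FPKM in control males, 17.5 in control females and 5.40 in Xp XRRa KO females. The yolk sac column was sparse: 50.04% of the 5865 genes with a table mean of at least 5 FPKM were at 0 there, against 0.61% to 5.46% in the other columns, and 27 of the 50 members were at 0. The part of mixed cell types in the results below was not tested, and in bulk samples fewer cells of a type and less RNA per cell cannot be told apart.

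Core genes stood above regulatory particle genes in all 7 columns before the yolk sac and in all 3 morula groups. The median level of the 12 core genes was 434 FPKM in 8-cell embryos, against 266 for the 16 regulatory particle genes. These medians were 419.6 and 293 FPKM in morulae, 394.9 and 209 FPKM in trophectoderm and 440.6 and 217 FPKM in inner cell mass. At E6.5 they were 383.2 and 168.8 FPKM in epiblast, 336 and 177 FPKM in extraembryonic ectoderm and 213 and 81.4 FPKM in visceral endoderm. The core was thus 1.43 times the regulatory particle in morulae and 2.62 times in visceral endoderm, with 1.63 in 8-cell embryos and 1.89 to 2.27 in the other 4 columns. In the morula table it was 2.16 times in control females, 1.83 in control males and 1.81 in Xp XRRa KO females. The value of 1.43 thus held for the morulae of the stage table alone. FPKM is per length of transcript, but reads that tell the alleles apart need not be spread evenly over genes. Regulatory particle transcripts are also longer than most core transcripts. The part of either in this difference between core and regulatory particle was not tested. Psma7, an alpha ring gene, was the highest of the 28 genes in every one of these 10 columns but the morulae of the stage table, where Psma6 was highest at 672 FPKM. Psma7 was at 968 FPKM in 8-cell embryos, 714 FPKM in epiblast and 281 FPKM in visceral endoderm. Before the yolk sac, of the catalytic genes, Psmb5 ranged from 211.5 FPKM in visceral endoderm to 476.7 in morulae, Psmb6 from 239.4 in visceral endoderm to 520.1 in 8-cell embryos and Psmb7 from 221.1 in visceral endoderm to 635.8 in 8-cell embryos.

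**Figure D1:**
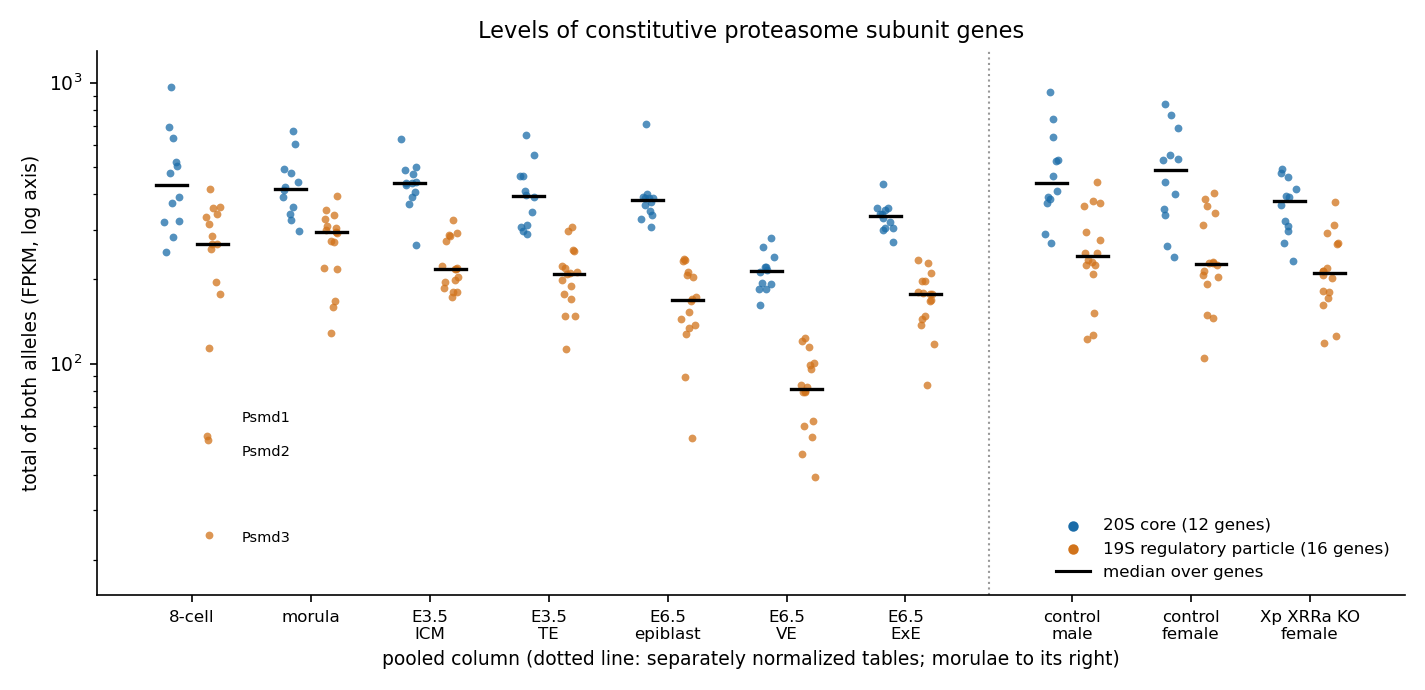
Total level of each constitutive subunit gene (points, FPKM on a log axis) in the pooled columns of the stage table before the yolk sac and of the morula table, with core genes in blue, regulatory particle genes in orange and black bars for the median over genes. The core median lies above the regulatory particle median in each column, and Psmd1, Psmd2 and Psmd3 lie apart in 8-cell embryos, at 55.3, 53.3 and 24.5 FPKM.

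As a share of all FPKM of a column, the 28 constitutive genes made up 2.65% in 8-cell embryos and 2.40% in morulae. In blastocysts they made up 2.26% of the inner cell mass and 2.08% of the trophectoderm column. At E6.5 they made up 2.01% in epiblast, 1.51% in extraembryonic ectoderm and 1.16% in visceral endoderm, and at E9.5 0.60% in yolk sac. The columns of each stage thus lay below those of the stage before. In the morula table, it was 2.79% in control males, 2.63% in control females and 2.46% in Xp XRRa KO females.

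In 8-cell embryos the regulatory particle genes were far from even. Psmd3, a lid scaffold subunit, was at 24.5 FPKM, and Psmd1 and Psmd2, the large scaffolds of the base that dock ubiquitin receptors, were at 55.3 and 53.3 FPKM. The next lowest, the ATPase Psmc3, was at 113.6 FPKM, and Psmc1 was highest at 417 FPKM, 17.1 times Psmd3. In morulae Psmd3 was at 216.5 FPKM, Psmd2 at 167.0 and Psmd1 at 128.4, and the range over the 16 genes was 3.08-fold. In inner cell mass it was 1.89-fold, from Psmd1 (172 FPKM) to Psmd4 (325 FPKM), the smallest of these columns. It was 2.72-fold in trophectoderm, 4.34-fold in epiblast, 3.13-fold in visceral endoderm and 2.79-fold in extraembryonic ectoderm, with Psmd3 lowest in all 4. The 12 core genes, in comparison, spanned 3.87-fold in 8-cell embryos and 1.62-fold to 2.38-fold in the later columns before the yolk sac.

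The comparison of morulae with 8-cell embryos spans the wave of embryonic transcription that follows genome activation. Psmd3 was 8.85 times higher in morulae, on both alleles (maternal 8.66 times, paternal 9.09 times), Psmd2 3.13 times (maternal 2.60, paternal 4.61) and Psmd1 2.32 times (maternal 2.22, paternal 2.43). These were the 3 of 40 counted members at least 2-fold higher, with log2 ratios of 3.10, 1.63 and 1.20, and 0 were at least 2-fold lower. Over all 5537 genes counted, 29.0% were at least 2-fold higher and 4.68% lower (33.7% either way). The difference between these shares and the members' count was not tested. The median log2 ratio of the 28 constitutive genes was 0.09, with the core at -0.08 and the regulatory particle at 0.18, against 0.45 for all genes. That all-gene median moves with the scaling: with median-of-ratios scaling the constitutive median was -0.47, and its distance from the all-gene median was -0.36 as deposited and -0.42 after scaling. Ratios also moved with transcript length. With genes in 4 classes of equal size by length, the median log2 ratio was -0.0062 in the shortest (345 to 1484 bases) and 0.54, 0.76 and 0.56 in the longer classes, where 32.4%, 41.2% and 31.5% of genes were at least 2-fold higher. Psmd3 (2148 bases), Psmd2 (2961 bases) and Psmd1 (3112 bases) are all in those longer classes, and most core genes are in the shortest; the part of length was not tested. Of 15 counted partner genes, 4 were at least 2-fold higher, among them Vcp, the segregase that delivers substrates to the proteasome (41.0 to 197.0 FPKM). Adrm1, the ubiquitin receptor docked on Psmd1, went from 264.6 to 396.3 FPKM, and was not 2-fold higher. Of 6 counted X-linked genes of the ubiquitin system, Uba1, the ubiquitin-activating enzyme (26.9 to 160.4 FPKM), and Cul4b (5.87 to 15.4) were at least 2-fold higher, and Usp9x (7.03 to 2.77) was lower.

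Between morulae and the blastocyst tissues the median of the constitutive genes moved little, but the lid lay below the core. Against morulae, the median log2 ratio was -0.15 in inner cell mass (all genes 0.14) and -0.32 in trophectoderm (all genes 0.00). In inner cell mass the core median was 0.057, the base median -0.0066 and the lid median -0.32. In trophectoderm these medians were 0.0049, -0.28 and -0.73, and 6 of the 7 lid genes lay below the all-gene median. In inner cell mass 1 of 40 members was at least 2-fold higher, the inducible subunit Psmb9 (5.31 to 38.4 FPKM), and 0 were lower, against 16.6% of all genes higher and 8.28% lower (24.9% either way). In trophectoderm the activator Psme4 was higher (log2 ratio 1.01, 3.09 to 7.22 FPKM), and the lid gene Psmd12 (-1.01), the core assembly chaperone Psmg3 (-1.71) and Psmc3ip (-1.61) were lower, 1 and 3 of 40 members against 18.7% and 15.3% of all genes (34% either way). The inner cell mass exceeded trophectoderm at least 2-fold for 3 of 40 members, Psmb9 (2.48), Psmc3ip (1.22) and Psmg3 (1.18), with 0 lower, against 11% and 8.97% of all genes (19.9% either way). These 3 comparisons share columns, so their values are not independent of each other.

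**Figure D2:**
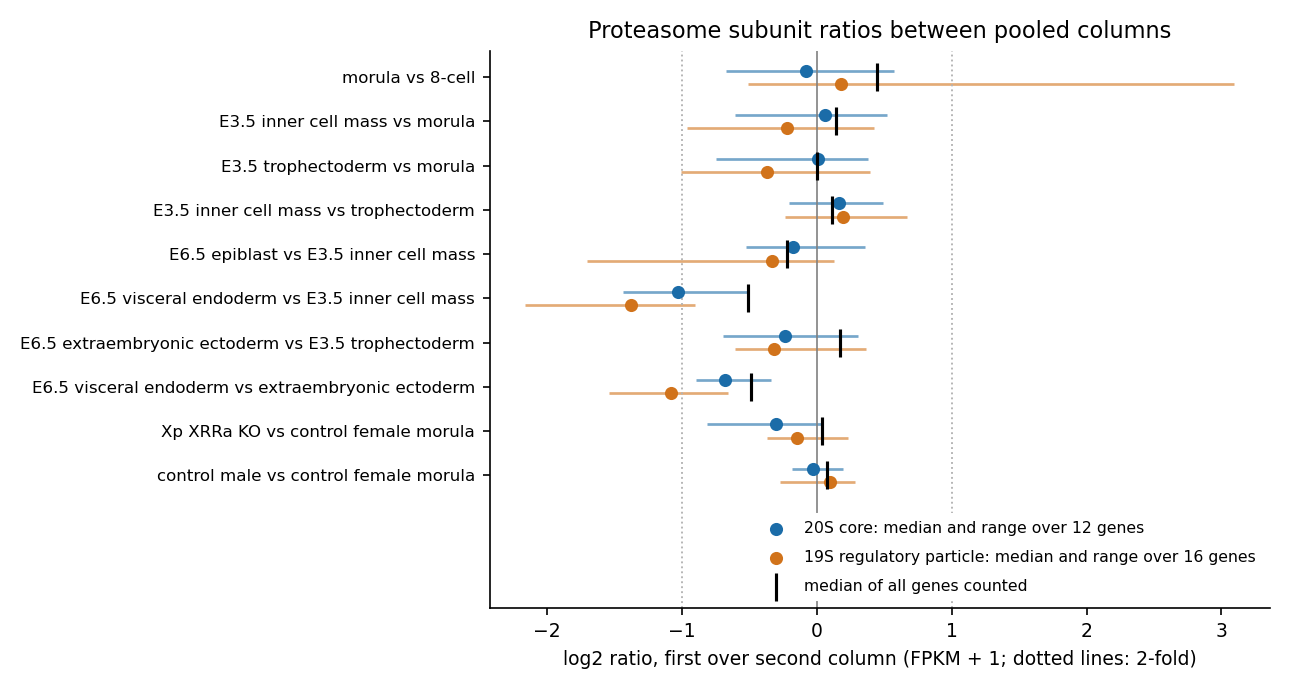
Log2 ratios (FPKM plus 1, first over second pooled column) of constitutive subunit genes in 10 comparisons: dots are medians over 12 core genes (blue) and 16 regulatory particle genes (orange), lines the range over those genes, and black ticks the median of all genes counted. Both medians of the comparison of visceral endoderm with inner cell mass lie left of -1, at -1.03 and -1.38, while the tick lies at -0.51.

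At E6.5 the epiblast column, of 1 sample, stayed near the inner cell mass in its constitutive median. That median log2 ratio was -0.30 (all genes -0.22, constitutive -0.044 with median-of-ratios scaling). Of the 16 regulatory particle genes, 13 lay below the all-gene median and 3 above, against 5 and 7 of the 12 core genes. Psmd11 (-0.98), Psmd1 (-0.94), Psmd4 (-0.91) and Psmd2 (-0.74) were lower without reaching 2-fold. Of 40 members, 2 were at least 2-fold higher, the activators Psme4 (2.34) and Psme3 (1.08), and 2 were lower, Psmb9 (-4.25) and Psmd3 (-1.71, 179.5 to 54.3 FPKM), against 11% and 25.2% of all genes (36.2% either way).

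Visceral endoderm, the secretory layer that surrounds the E6.5 embryo, had the lowest median subunit level before the yolk sac, 118 FPKM over the 28 constitutive genes, although Psmd3 and Psmd2 were lower in 8-cell embryos. All 28 constitutive genes were lower than in inner cell mass by more than the all-gene median, with log2 ratios from -0.52 to -2.16. At least 2-fold lower were 24 of 39 members, among them all 9 base genes, 5 of 7 lid genes and 7 of 12 core genes, against 31.2% of all 5621 genes counted. The largest differences were in Psmd3 (-2.16), Psmd11 (-2.16), the ubiquitin receptor Psmd4 (-2.03), Psmd2 (-2.00), Psmd1 (-1.83) and the base assembly chaperone Psmd5 (-1.82). Psme4 was the 1 member at least 2-fold higher (2.29), against 10.8% of all genes (42.0% of all genes differed either way). The core median was -1.03, the regulatory particle median -1.38 and the all-gene median -0.51. With median-of-ratios scaling the constitutive median was -0.67 rather than -1.19, and its distance from the all-gene median was -0.65 rather than -0.67. In this comparison the 4 length classes had medians between -0.71 and -0.26. The Spearman rho of the ratio with length was 0.052 over all 5338 genes with a length and -0.37 over the 28 constitutive genes, and the part of length was not tested.

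Compared with extraembryonic ectoderm of the same day, visceral endoderm was lower for all 28 constitutive genes (log2 ratio -0.34 to -1.54). The difference was deeper in the regulatory particle (median -1.08, 10 of 16 genes at least 2-fold lower) than in the core (median -0.68, 0 of 12), beside an all-gene median of -0.49. Over all members, 14 of 40 were at least 2-fold lower and 1, Psme4 (1.08), was higher, against 24.4% and 6.80% of all genes (31.2% either way). The lowest ratios were in Psmd5 (-2.14), Psmd11 (-1.54), the assembly chaperone Psmg2 (-1.40), Psmd2 (-1.38), Psmd1 (-1.28) and Psmc2 (-1.23). With median-of-ratios scaling the constitutive median was -0.34 in place of -0.89, and its distance from the all-gene median -0.36 in place of -0.40. Regulatory particle transcripts are longer than most core transcripts: over the 28 genes the Spearman rho of this ratio with length was -0.52, against 0.048 over all 5390 genes with a length, and the part of length was not tested. Between extraembryonic ectoderm and trophectoderm the constitutive median was -0.30 (all genes 0.17, constitutive -0.50 with median-of-ratios scaling). Psmc3ip (1.83), Psmg3 (1.07) and Psmg4 (1.01) were at least 2-fold higher and Psmb9 (-1.44) was lower, 3 and 1 of 40 members against 17.8% and 15.4% of all genes (33.2% either way). The yolk sac column gave values for 22 members against visceral endoderm, of which 13 were at least 2-fold lower and 0 higher, against 29.7% and 10.4% of all genes (40.1% either way). The constitutive median there was -1.48 over 16 of 31 genes (all genes -0.38, constitutive -1.11 with median-of-ratios scaling). Subunits listed at 0 in yolk sac are not in that median. In that column, 90.2% of genes with both alleles above 0 had maternal and paternal values in a ratio of small whole numbers (a sum of at most 20, within 2e-05), including all 14 such members, and 28.1% of genes did so in the epiblast column, against 4.02% to 12.2% in the other columns of the stage table. Psma3, for example, had equal values on both alleles in yolk sac.

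The inducible subunits each had a different pattern. Psmb9 was at 4.34 FPKM in 8-cell embryos, 5.31 in morulae, 6.07 in trophectoderm and 38.4 in inner cell mass. Later it was at 1.08 FPKM in epiblast and 1.6 in extraembryonic ectoderm, and it was listed at 0 in visceral endoderm and yolk sac. Psmb9 was thus highest in inner cell mass, on both alleles (maternal 8.95 FPKM, paternal 29.5). In the morula table, Psmb9 was at 26.8 FPKM in control males, 14.8 in control females and 8.70 in Xp XRRa KO females. Psmb10 was at 0 in every column of preimplantation embryos, including the morula table, and, at E6.5, reached 21.4 FPKM in epiblast, 11.8 in extraembryonic ectoderm and 12.8 in visceral endoderm. Psmb8, which neighbours Psmb9 in the major histocompatibility complex, reached no more than 3.75 FPKM, in epiblast. No column had all 3 genes above 5 FPKM. In inner cell mass, where Psmb9 was at 38.4 FPKM, the catalytic subunit it replaces, Psmb6, was at 487.7 FPKM. Of the antigen processing genes, the transporter Tap1 was at no more than 4.95 FPKM in the stage table and 12.6 in the morula table, and B2m was listed at 0 in every column. The class I genes H2-K1 and H2-D1 were at 18.1 and 13.8 FPKM in inner cell mass, below their levels in trophectoderm (25.4 and 46.9 FPKM).

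The alternative caps followed another course. Psme4, the nuclear activator PA200, was at 2.2 FPKM in 8-cell embryos, 3.09 in morulae, 7.22 in trophectoderm and 5.06 in inner cell mass. At E6.5 it was at 29.7 FPKM in epiblast, 13.01 in extraembryonic ectoderm and 28.6 in visceral endoderm, and it was listed at 0 in yolk sac. Psme3, the nuclear activator PA28 gamma, was at 9.66 FPKM in 8-cell embryos, 18.9 in morulae, 26.8 in trophectoderm and 21.1 in inner cell mass. At E6.5 it was at 45.5 FPKM in epiblast, 33.6 in extraembryonic ectoderm and 36.0 in visceral endoderm, and yolk sac was at 16.1. The 3 columns of E6.5 were the highest for both genes, while the median of the constitutive subunits was lower there than in each earlier column. Psmf1, the inhibitor PI31, stayed between 5.31 and 14.3 FPKM across the stage table. The restricted forms were near 0: Psma8, a testis alpha subunit, was at no more than 1.28 FPKM, and Psmb11, a thymus beta subunit, at no more than 1.08.

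**Figure D3:**
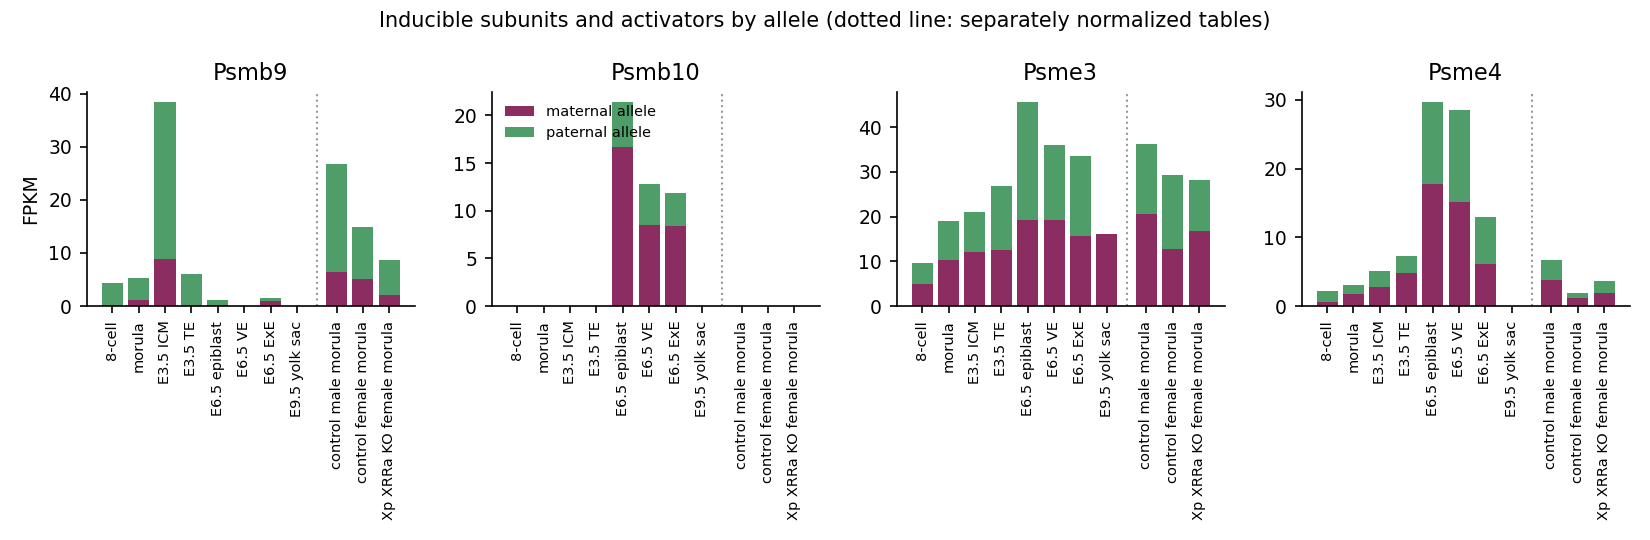
Stacked bars give the maternal (purple) and paternal (green) FPKM of Psmb9, Psmb10, Psme3 and Psme4 in each pooled column of the stage table and, right of the dotted line, of the separately normalized morula table. Psmb9 peaks at 38.4 FPKM in inner cell mass, Psmb10 appears only in the 3 columns of E6.5, and Psme4 is highest in epiblast and visceral endoderm, at 29.7 and 28.6 FPKM.

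Before the yolk sac and in the morula table, each assembly factor lay below the median level of the core (Psmg genes) or the base (Psmd5, Psmd9 and Psmd10). The core chaperones Psmg1 to Psmg4 lay between 22.2 and 141 FPKM in the columns before the yolk sac, with Psmg2 highest of the 4 in each of them but visceral endoderm. Psmg2 was at 141 FPKM in epiblast and, in visceral endoderm, at 46.8 FPKM beside 50.5 for Psmg1. Of the base chaperones, Psmd5 lay between 14.7 FPKM in visceral endoderm and 68.4 in extraembryonic ectoderm, and Psmd9 between 12.5 in visceral endoderm and 34.1 in morulae. Psmc3ip was at 50.6 FPKM in 8-cell embryos, 8.50 in trophectoderm and 32.8 in extraembryonic ectoderm.

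Most autosomal members gave similar values on both alleles. The median paternal share, the paternal FPKM over the total for members at 1 FPKM or more, was 48.1% in 8-cell embryos, 45.9% in morulae, 48.2% in trophectoderm and 48.9% in inner cell mass. At E6.5 it was 49.9% in epiblast, 49.1% in extraembryonic ectoderm and 49.3% in visceral endoderm. The median of all autosomal genes lay between 46.8% and 49.2% in those columns. Members with a share under 30% or over 70% numbered 5 of 39 in 8-cell embryos (28.4% of all autosomal genes), 2 of 39 in morulae (19.5%), 1 of 39 in trophectoderm (15.9%) and 1 of 39 in inner cell mass (17.2%). They numbered 4 of 42 in epiblast (14.1%), 0 of 39 in visceral endoderm (7.90%), 4 of 44 in extraembryonic ectoderm (9.22%) and 12 of 22 in yolk sac (62.1%). Those of extraembryonic ectoderm include Psmb2, Psme2 and Psmd13, each above 0 there on a single allele. In the morula table, they numbered 1 of 39 in control males (19.6%), 0 of 39 in control females (23.3%) and 1 of 39 in Xp XRRa KO females (18.7%).

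The 5 members outside that range in 8-cell embryos were Psmb9, with 100% paternal, Psme4 (75%), Psmg4 (27.1%), Psmd2 (26.4%) and Psmg1 (25.9%). Psmd2 gave 39.2 FPKM maternal and 14.1 paternal in 8-cell embryos and 102.1 maternal and 65.0 paternal in morulae, so its share was 26.4% and then 38.9%, and it lay between 48.2% and 52.7% in the later columns before the yolk sac. Psmg1 was at 25.8% in morulae, 35.5% in inner cell mass and 44.1% in trophectoderm. Psma4, an alpha ring gene, was at 30.6% in 8-cell embryos and 30.1% in morulae and at 49.7% in inner cell mass. Its maternal level was 227.5 FPKM in morulae and 222.3 in inner cell mass, while the paternal level was 98.1 and 219.5. In the control morulae of the other table, Psma4 was at 40.5% (males) and 35.8% (females). Psma3 stood low at every stage before the yolk sac, between 37.6% and 42.8%, and so did Psmd5 in the morula table (33.8% to 34.9%). Psmb9 stood high, with 79.6% in morulae, 100% in trophectoderm, 76.7% in inner cell mass and 65.1% to 77.1% in the 3 morula groups, although it was at 44.2% in extraembryonic ectoderm, at 1.6 FPKM. Psmb10 stood low in all 3 tissues where it was above 0, between 22.2% and 33.3%. At low levels a share rests on few reads, and the depth behind it is unknown.

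Psmd10, also called gankyrin, encodes an ankyrin repeat chaperone of the base that binds the ATPase Psmc4, and its gene is on the X chromosome. In female mouse embryos the paternal X is silenced after the first divisions, stays silent in the extraembryonic tissues and is reactivated in the inner cell mass lineage, before either X is silenced at random in epiblast cells. The Psmd10 level was 23.6 FPKM maternal and 1.45 paternal in 8-cell embryos and 18.1 and 1.05 in morulae. The paternal allele was listed at 0 in trophectoderm, inner cell mass and yolk sac, where the maternal allele gave 36.8, 27.4 and 29.2 FPKM. At E6.5 the maternal and paternal levels were 14.9 and 14.3 FPKM in epiblast, 22.2 and 1.20 in extraembryonic ectoderm and 18.2 and 0.28 in visceral endoderm. Its paternal share was therefore 5.80% in 8-cell embryos and 5.50% in morulae, where the median X-linked gene stood at 42.6% and 26.1%. In inner cell mass it was 0 against 8.49%. In epiblast the share was 49.0%, beside an X-linked median of 47.8%. The total stayed between 18.4 and 36.8 FPKM in all 8 columns. In the morula table, the share was 1.98% in control males, which carry no paternal X, 5.80% in control females (X-linked median 29.3%) and 39.9% in Xp XRRa KO females (X-linked median 54.2%). There Psmd10 gave 16.6 FPKM maternal and 1.02 paternal in control females and 8.89 and 5.90 in Xp XRRa KO females, with totals of 17.6 and 14.8.

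**Figure D4:**
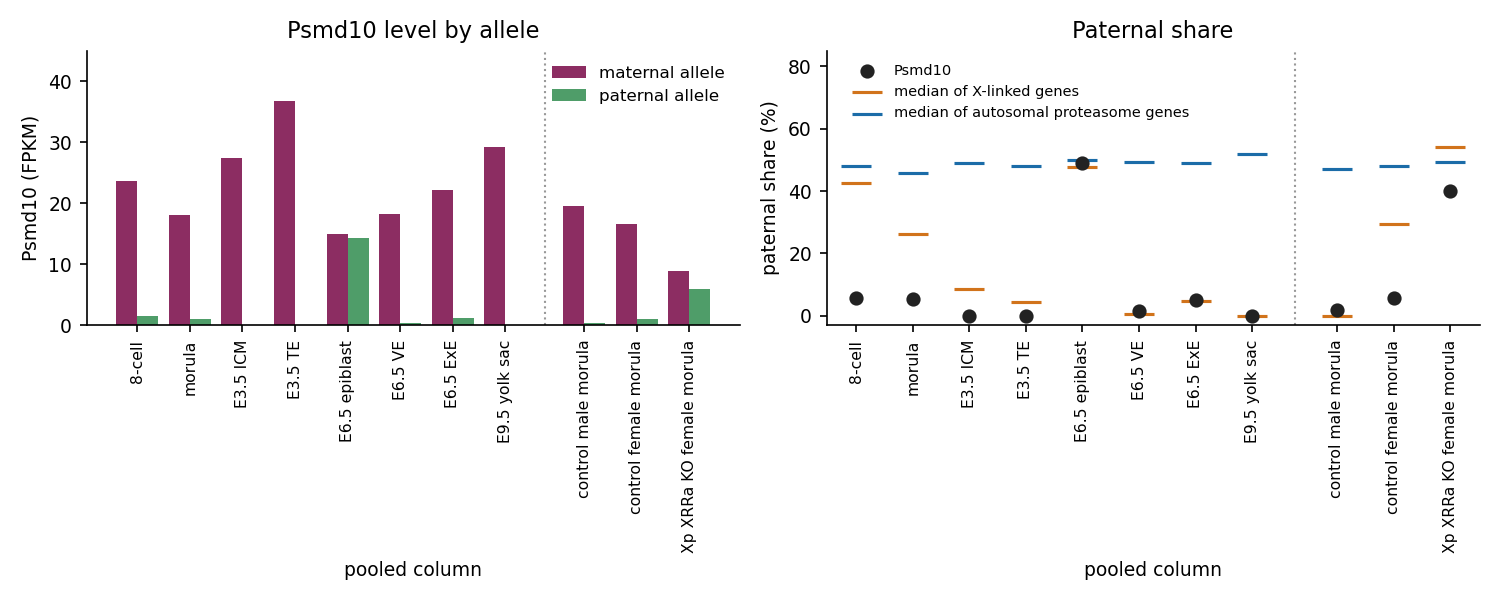
The left panel gives the maternal (purple) and paternal (green) FPKM of X-linked Psmd10 in each pooled column, and the right panel its paternal share in percent (black) beside the medians of X-linked genes (orange) and of autosomal proteasome genes (blue). The paternal allele of Psmd10 is near the maternal one only in epiblast and Xp XRRa KO morulae, with shares of 49.0% and 39.9%.

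The 28 constitutive genes, all autosomal, were compared between the morula groups as well. No counted member was at least 2-fold different between Xp XRRa KO and control female morulae (0 of 39, against 3.09% of all genes higher and 3.05% lower, 6.13% in all) or between control males and females (0 of 39, against 1.88% and 2.24%, 4.12% in all). Psme4, not counted since its table mean is under 5 FPKM, was at 6.71 FPKM in control males and 1.92 in control females, 2.64-fold on FPKM plus 1. The constitutive median log2 ratio of Xp XRRa KO to control females was -0.19 against 0.03 for all genes, with 25 of 28 genes below the all-gene median. The core was at -0.30 and the regulatory particle at -0.15. The lowest were Psmb6 (-0.81, 692.4 to 394.0 FPKM), Psma7 (-0.77, 839.2 to 491.7) and Psmb3 (-0.73, 769.6 to 463.3). Over all genes in this comparison the ratio moved with transcript length: the median log2 ratio was -0.34 in the shortest class of genes (333 to 1420 bases), -0.020 and 0.19 in the next 2 and 0.30 in the longest. The Spearman rho with length was 0.48 over 4929 genes and 0.54 over the 28 constitutive genes, as a description over genes that share their libraries. Psmb6 (798 bases), Psma7 (1036 bases) and Psmb3 (766 bases) are in the shortest class, whose median of -0.34 stood beside the core median of -0.30, and the part of length was not tested. In the comparison of control males with control females, the constitutive median was 0.06 (all genes 0.08), and rho with length was 0.11 over all genes. The trophectoderm gene Krt8 was at 479.2 FPKM in control males and 181.5 in control females, and its part in these values was not tested.

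The EedmNull table had a column per embryo, and Psmd10 was its 1 proteasome gene of 1052. Its paternal allele was listed at 0 in embryos 1, 3, 4 and 5, and its paternal share was 25.5% in embryo 2, 30.2% in embryo 6, 30.8% in embryo 7, 45.9% in embryo 8, 46.4% in embryo 9, 35.6% in embryo 10, 41.7% in embryo 11, 41.1% in embryo 12 and 77.1% in embryo 13. The mean was 28.8% ± 23.5 (SD, n = 13), so the embryos differed widely. The median share of X-linked genes in the same embryos ranged from 0% (embryo 4) to 80.6% (embryo 13), with a mean of 33.9% ± 26.1 (SD, n = 13), and the 4 embryos without paternal Psmd10 were the 4 lowest by that median, at 0% to 6.96%. The share of Psmd10 went with it across embryos (Pearson r = 0.96, permutation p = 1e-05, the smallest that 100000 permutations can give, 2e-05 after Benjamini-Hochberg adjustment over 2 relations; Spearman rho = 0.94, permutation p = 2e-05, adjusted 4e-05). Without embryos 4 and 13, the farthest from the middle, r was 0.94 (permutation p = 9e-05, n = 11). The total of Psmd10, in contrast, was 19.7 ± 2.25 FPKM (SD, n = 13), from 15.4 to 24.0, and no relation with the X-linked median was detectable (r = 0.29, permutation p = 0.346, n = 13; without embryos 4 and 13, r = 0.48, permutation p = 0.139, n = 11). The maternal level was 21.1 FPKM in embryo 4 and 4.47 in embryo 13, and the paternal level 0 and 15.1.

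In a limma fit of the log2 ratio of paternal to maternal FPKM plus 1 over 300 X-linked genes, the slope of Psmd10 on the embryo median ratio was 1.58 (SE 0.14, adjusted p = 1.14e-07). Slopes above 0 were called for 92.7% of these genes, so a slope is not particular to Psmd10. The median slope was 1.0, and 79.3% of genes had a lower one than Psmd10. The pseudocount of 1 narrows the ratios of genes at low levels, so this rank depends in part on level. With genes of a mean total of at least 5 FPKM alone the slope of Psmd10 was smaller. The mean log2 ratio of Psmd10 was -1.65 (SE 0.52), lower on the paternal allele, and did not pass the threshold of 0.05 (limma adjusted p = 0.0608), where 9% of genes were called lower and 0.333% higher. Without embryo 13 it was -1.92 and passed (limma adjusted p = 0.0149), so the call turns on that embryo. The median of the mean log2 ratios over all 300 genes was -0.75, and 9.67% of genes had a lower value than Psmd10. That rank, too, depends in part on level, and the part of level was not tested. Of 6 other fitted X-linked genes of the ubiquitin system, listed for this comparison, 1 was called, the deubiquitinase Usp9x, which was lower (-1.03, SE 0.28, adjusted p = 0.0368). Ube2a, a ubiquitin-conjugating enzyme, was at -1.33 (adjusted p = 0.0848), Cul4b, a ligase scaffold, at -1.59 (adjusted p = 0.0727) and Uba1 at -0.94 (adjusted p = 0.112). The ligase Huwe1 was at -0.81 (adjusted p = 0.0859), and Ubqln2, a shuttle to the proteasome, at -0.55 (adjusted p = 0.375).

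**Figure D5:**
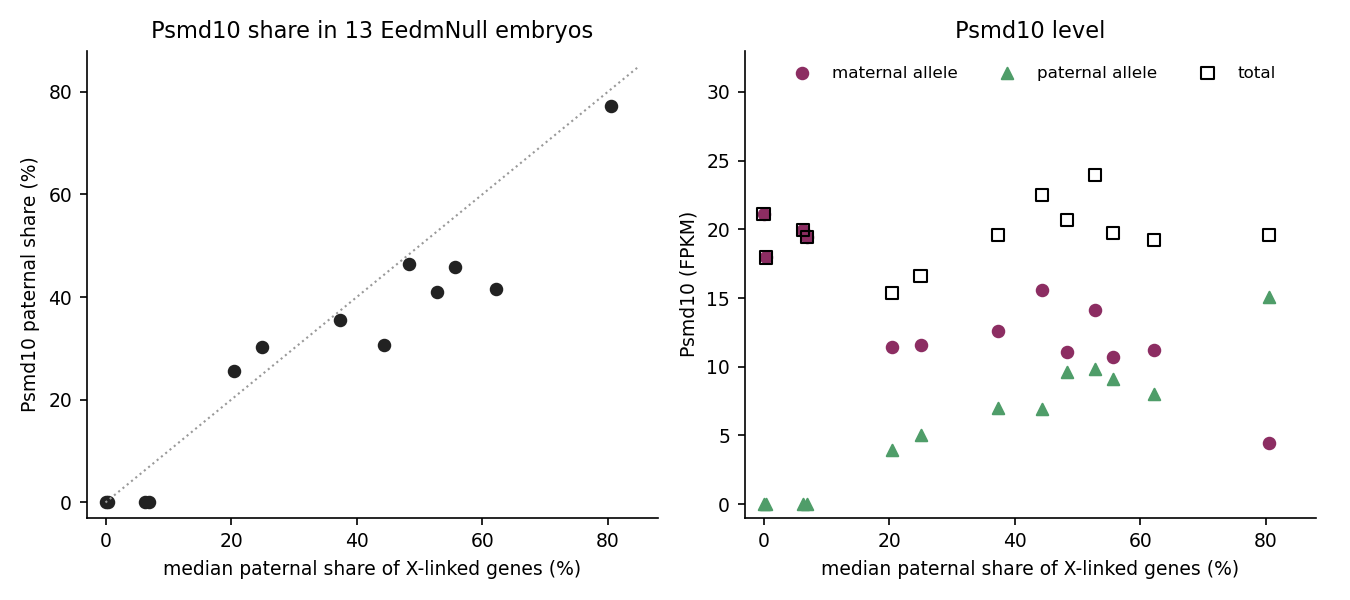
Each point is 1 of 13 EedmNull embryos, placed by the median paternal share of its X-linked genes in percent: the left panel gives the paternal share of Psmd10 with a dotted line of equal shares, and the right panel the FPKM of its maternal allele (circles), paternal allele (triangles) and total (squares). The share runs from 0% to 77.1% while the total stays between 15.4 and 24.0 FPKM.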

How the data were processed

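Smart-seq2 libraries of polyadenylated RNA from 42 mouse samples were analysed. The deposited values were FPKM per gene and allele, made by the authors with Trim Galore 0.6.4, HISAT2 2.2.0 and StringTie 2.1.1 on mm9, per the submitters' processing notes. The assignment of reads to alleles and the scaling of the allele columns are not given in the sources used here. A table by stage (24083 genes) and a table of morulae (23986) held the authors' pooled columns, and the EedmNull table (1052 X-linked genes) a column per embryo. The tables were normalized separately, so levels were compared within a table. FPKM carry no counts, so depth is unknown and no counting interval was computed. 5 summary lines were left out.

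Totals are the sum of both alleles. Log2 ratios are on FPKM plus a pseudocount of 1, which understates differences of low genes. Ratios needed a table mean of at least 5 FPKM for the 2-fold rule and values above 0 in both columns. Shares needed a total of 1 FPKM. Multiples between columns given as times higher are ratios of the printed FPKM. The constitutive medians take every subunit above 0 in both columns. The members, gene lists and tests were chosen with earlier results of these data known. Named genes were the catalytic, inducible, activator, assembly and restricted members, up to 6 members with the largest ratios per direction, members listed at 0 in some columns and members with extreme shares; other members named in the text were chosen after their values were seen. The comparison by transcript length (median spliced length of protein-coding transcripts, GENCODE vM21, with lengths for 94.5% to 95.3% of the genes) and the count of genes above 0 in extraembryonic ectoderm alone were added after the data were seen.

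EedmNull ratios were fitted with limma 3.58.1 (R 4.3.3) over X-linked genes with a mean total of at least 1 FPKM, with Benjamini-Hochberg adjustment; these embryos are separate animals per the labels. The correlation used 100000 permutations (two-sided, seed 7). The limma procedure was tested on simulated ratios with independent noise for each gene. The simulation of the mean ratio lacked the spread between embryos that X-linked genes share, so it cannot show how the mean test behaves under that spread. Promoters and chromosomes came from RefSeq on GRCm38.p6, matched by symbol. The promoter table had entries for 42 of the 50 members. Tables were handled in pandas 2.3.3 and numpy 2.4.6 under Python 3.11.15, permutations used scipy 1.17.1, and plots were drawn with matplotlib 3.10.9.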

Additional observations from a re-analysis of the deposited data

How the results depend on the processing

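Alternatives were another pseudocount, members at 0 kept, median-of-ratios scaling, each allele alone, other minimum levels, a 1.5-fold rule, other share minimums and each EedmNull embryo left out. Of 77 alternative constitutive medians, 72 lay within the 95% interval of the main median, taken from the ranks of its genes. The other minimum levels kept the same genes and so could not move any of these medians. The interval describes the spread over genes in pooled columns and not a spread between samples, so this count is no measure of robustness. The other 5 lay outside that interval, all with median-of-ratios scaling: -0.47 for morula against 8-cell, -0.044 for epiblast and -0.67 for visceral endoderm against inner cell mass, -0.50 for extraembryonic ectoderm against trophectoderm and -0.34 for visceral endoderm against extraembryonic ectoderm. At 1.5-fold, the members called numbered 9 of 40 (morula against 8-cell), 7 and 13 of 40 (inner cell mass and trophectoderm against morula) and 5 of 40 (inner cell mass against trophectoderm). They numbered 9 of 40 (epiblast against inner cell mass), 12 of 40 (extraembryonic ectoderm against trophectoderm) and 34 of 40 (visceral endoderm against extraembryonic ectoderm). Visceral endoderm against inner cell mass gave 34 of 39, and yolk sac against visceral endoderm 16 of 22. The morula groups gave 5 of 39 (Xp XRRa KO against control females) and 1 of 39 (control males against females). The share of all genes at 1.5-fold was not computed, so these counts have no background beside them. With 5 FPKM in 1 column in place of the table mean, control males against females gave 1, Psme4. The share of summed FPKM in extraembryonic ectoderm was 46.1%, against a median of 49.1%. That sum holds Psmb2 (377.9 FPKM, all maternal) and Psmd13 (50.7 FPKM, all paternal). With each embryo left out, the Psmd10 mean log2 ratio ranged from -1.92 to -1.42, and its slope from 1.51 to 1.66, while the slope was 1.14 with genes of a mean total of at least 5 FPKM alone, which also set the embryo median; without embryo 13 the mean ratio passed (adjusted p = 0.0149, limma), and without any other embryo it did not (0.0503 to 0.146). The cause of these moves was not tested beyond the scaling and the lower fold themselves. No paired analysis was possible because the stage and morula columns pool their samples and the EedmNull embryos are 1 group. Depth limits the shares of low members, and the yolk sac and epiblast columns are 1 sample each.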
